A study of Mus musculus with 7 samples.

Results

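Interleukins, colony-stimulating factors, gp130 cytokines and tumour necrosis factor (TNF) ligands, with their receptors and antagonists, were followed in epidermis of mice bred to lose Abca12 in adult skin. The genes were taken by name: every gene in the deposited table whose symbol begins with Il and a digit, Tnf, Csf and a digit, Osm or Lif, or is Tslp. This gave 66 of the 7091 genes in the table: 21 ligands, 33 receptor chains, 6 antagonists or decoys, and 6 others, namely an antisense transcript and 5 Tnfaip genes, which carry TNF in their names but are not TNF ligands or receptors. Abca12 encodes a lipid transporter that keratinocytes need to build the skin barrier. It is not among the listed genes and was not analysed here, so its loss was not checked. RNA was sequenced from epidermis separated from telogen skin, the resting phase of the hair cycle, of 7 mice. The 4 mutants, called KA, were K14-CreERT;ABCA12-cKO mice (KA 1 and 2 male, KA 3 and 4 female). Their recombinase is driven by the keratin 14 promoter, which is active in basal keratinocytes, and works only after tamoxifen. The 3 controls were ABCA12-c/c mice without CreERT (controls 1 and 3 female, control 2 male). All 7 mice received tamoxifen at 8 weeks of age, dosed at 1 mg for each 40 g they weighed, for 3 days, and RNA was taken 2 weeks later. Since only the mutants carried the recombinase, its effect and that of losing Abca12 cannot be told apart.

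These families carry the signals between keratinocytes and immune cells of the skin. A cytokine acts only on cells that hold its receptor chains, and several ligands are held in check by receptor antagonists or by decoy receptors that bind a ligand without signalling. In skin, interleukin 36 and interleukin 1 come largely from keratinocytes, interleukins 17A, 17F and 22 from lymphocytes, and keratinocytes respond to both. TNF receptors divide into those that signal for survival and inflammation, those that can trigger cell death, and soluble decoys.

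The table is a part of each library: it lists only genes with an authors' adjusted p-value below 0.05, namely 36.5% of the 19407 genes that their adjustment ran over. Genes such as Il1a, Il18, Il33, Il1r1, Tnf, Tslp, Il4, Il13 and Il17ra are not among the listed genes and were not analysed here, so nothing is said of them. Reads in listed genes came to between 9590718 and 12761458 per library. The keratinocyte genes Krt5, Krt14 and Krt1, 3 of the 7 keratinocyte markers looked for, together held 375357 to 428053 normalised reads in controls and 949086 to 1034946 in KA. None of the 6 fibroblast genes and none of the 9 mast cell and basophil genes looked for are listed. Where markers of immune cells moved, their values stand beside the cytokines below. In bulk RNA more cells of a type and more RNA per cell cannot be told apart.

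Members lie within 300 kb of each other in 9 places in the genome (GRCm38). In 6 of these the members tested all rose, and in 3 they moved in opposite directions: the Il1f8 to Il1rn cluster, the receptor cluster of Il1r2, Il1rl2, Il18r1 and Il18rap, and the pair Il2ra (higher) and Il15ra (lower). On chromosome 2, from 24153161 to 24351494, 6 members follow each other over 198 kb with no other annotated coding gene between them: Il1f8, Il1f9, Il1f6, Il1f5, Il1f10 and Il1rn. Of these 5 were higher in KA and Il1f10 was lower. On chromosome 1, Il17a and Il17f are neighbours (20730905 to 20790617), and Il24, Il19 and Il10 lie within 143 kb (130882074 to 131024974) with Il20, not analysed here, among them. The sequences before the starts of 8 members are given because these genes show the patterns described below: ligands of the interleukin 1, 17 and 20 types and Lif, which rose, and the receptor chain Il20ra, which fell. They are RefSeq sequences of GRCm38.p6, read 5′ to 3′ on the gene's strand, ending at the base before the first RefSeq start or, where an annotated exon reaches into the window, at its edge. Il1b is at chr2:129371140-129371389 (minus strand), Il1f8 at chr2:24152922-24153160 (plus) and Il1f9 at chr2:24186226-24186475 (plus). Il17a is at chr1:20730655-20730904 (plus), Il17f at chr1:20784271-20784494 (minus) and Il19 at chr1:130940116-130940365 (minus). The Il17f window precedes the RefSeq start but lies inside the longer gene span of the deposited table, so it is not the sequence before that span. Il20ra is at chr10:19712337-19712569 (plus) and Lif at chr11:4257318-4257556 (plus). Capitals mark letters that match 1 of 4 motifs on either strand: AP-1 (TGANTCA), STAT (TTCNNNGAA), the ROR half-site (AGGTCA) and the kappa-B consensus.
Il1b: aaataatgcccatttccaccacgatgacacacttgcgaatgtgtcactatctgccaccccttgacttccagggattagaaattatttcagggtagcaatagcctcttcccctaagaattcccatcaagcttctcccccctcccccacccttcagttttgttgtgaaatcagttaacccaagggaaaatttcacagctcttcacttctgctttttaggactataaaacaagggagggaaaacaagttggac
Il1f8: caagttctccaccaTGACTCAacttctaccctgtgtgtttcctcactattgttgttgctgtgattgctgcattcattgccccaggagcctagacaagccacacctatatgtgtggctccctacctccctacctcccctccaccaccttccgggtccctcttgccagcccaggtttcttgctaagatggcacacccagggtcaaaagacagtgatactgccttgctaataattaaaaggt
Il1f9: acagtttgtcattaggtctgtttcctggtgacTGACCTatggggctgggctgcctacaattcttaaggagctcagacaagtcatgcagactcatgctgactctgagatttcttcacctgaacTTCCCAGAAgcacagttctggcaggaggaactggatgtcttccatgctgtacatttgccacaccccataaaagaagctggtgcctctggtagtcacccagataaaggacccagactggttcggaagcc
Il17a: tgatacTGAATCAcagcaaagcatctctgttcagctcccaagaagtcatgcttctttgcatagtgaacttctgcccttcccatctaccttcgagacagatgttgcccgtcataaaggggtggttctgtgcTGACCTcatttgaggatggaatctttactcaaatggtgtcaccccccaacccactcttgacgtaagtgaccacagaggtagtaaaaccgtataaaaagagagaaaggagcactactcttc
Il17f: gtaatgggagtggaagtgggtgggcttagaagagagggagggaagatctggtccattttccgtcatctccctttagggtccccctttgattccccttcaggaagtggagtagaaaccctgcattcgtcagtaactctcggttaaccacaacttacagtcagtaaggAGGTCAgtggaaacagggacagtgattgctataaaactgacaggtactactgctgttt
Il19: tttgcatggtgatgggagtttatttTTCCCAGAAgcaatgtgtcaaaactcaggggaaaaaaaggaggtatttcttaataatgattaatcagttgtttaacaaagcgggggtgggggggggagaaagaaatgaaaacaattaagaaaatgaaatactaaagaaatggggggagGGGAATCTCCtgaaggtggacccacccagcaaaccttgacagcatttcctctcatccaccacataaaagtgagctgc
Il20ra: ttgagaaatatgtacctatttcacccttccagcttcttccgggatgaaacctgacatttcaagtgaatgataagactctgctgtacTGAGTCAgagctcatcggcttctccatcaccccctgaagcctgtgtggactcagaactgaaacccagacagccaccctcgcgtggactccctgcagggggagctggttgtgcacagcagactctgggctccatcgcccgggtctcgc
Lif: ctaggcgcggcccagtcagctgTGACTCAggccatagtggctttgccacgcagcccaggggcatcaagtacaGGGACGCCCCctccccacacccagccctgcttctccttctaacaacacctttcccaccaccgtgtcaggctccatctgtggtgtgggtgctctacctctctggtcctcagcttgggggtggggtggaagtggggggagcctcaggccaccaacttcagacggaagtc
None of the marked matches overlap. Il17a and Il17f both hold the ROR letters, at -120 to -115 and at -58 to -53 from the start. Il19 and Il1f9 both hold the STAT letters, at -225 to -217 and -128 to -120. AP-1 letters stand in Il1f8 (-236 to -230), Il17a (-244 to -238), Lif (-228 to -222) and also in Il20ra (-164 to -158). Kappa-B letters stand in Il19 (-77 to -68) and Lif (-178 to -169). RefSeq windows of 250 bases were found for 50 of the 66 members. The AP-1 motif was in 9 of these 50 (18.0%) and in 6.85% of all 27025 promoters, the STAT motif in 6 (12.0%) and in 7.14%, the ROR half-site in 7 members and in 13.8%, and the kappa-B consensus in 8 (16.0%) and in 7.03%. These shares describe letters in short windows, and no binding was measured.

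The comparison asked how these genes differ between KA and control epidermis. Of the 66 members, 63 had enough reads to be tested, and 61 of them passed (edgeR's quasi-likelihood test, Benjamini-Hochberg adjusted p under 0.05 over all 6761 listed genes tested). Among all listed genes tested 91.5% passed, so passing says little about these families. Of the 63, 38 rose in KA (60.3%, against 44.0% of all listed genes tested) and 23 fell (against 47.5%). The median log2 fold change of the 63 was 0.89, beside 0.22 for all 6761, and the median size without sign was 1.62 beside 0.86. Il17a, Il22 and Il19, counted among the 38, had no control read and could be listed only as higher. The same nearly held for Il17f and Il10, with 2 control reads each. These shares and medians are therefore no independent evidence of a direction of the families. A change of at least 1 on the log2 scale was seen in 46 of the 63 members, and in 41.5% of all listed genes tested. All 14 ligands that rose, all 3 antagonists that rose and all 18 receptor chains that rose did so without overlap of the groups. Over all 66 members the 4 KA values and the 3 control values did not overlap in 62 (93.9%), where the share of all listed genes is 93.3% (93.5% of those tested). The authors' deposited table has 43 members higher and 23 lower in KA, beside 52.6% higher among all listed genes. The same limit holds for these 43, which also include Il24, without a control read. Scaling by the authors' size factors in place of TMM factors raised fold changes by a median of 0.134 on the log2 scale and changed no member's direction. How strand was used in counting is not given in the sources used here. Levels of members whose span overlaps another listed gene, among them Tnfrsf9 (Camta1), Il1r2 (Gm16894) and Il34 (Gm15894), are therefore uncertain. The genes had been listed for a difference in these very libraries, so a second pass adds no independent support. The labels name 1 animal per library but not litters or batches, so p-values measure the spread between these animals.

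**Figure D1:**
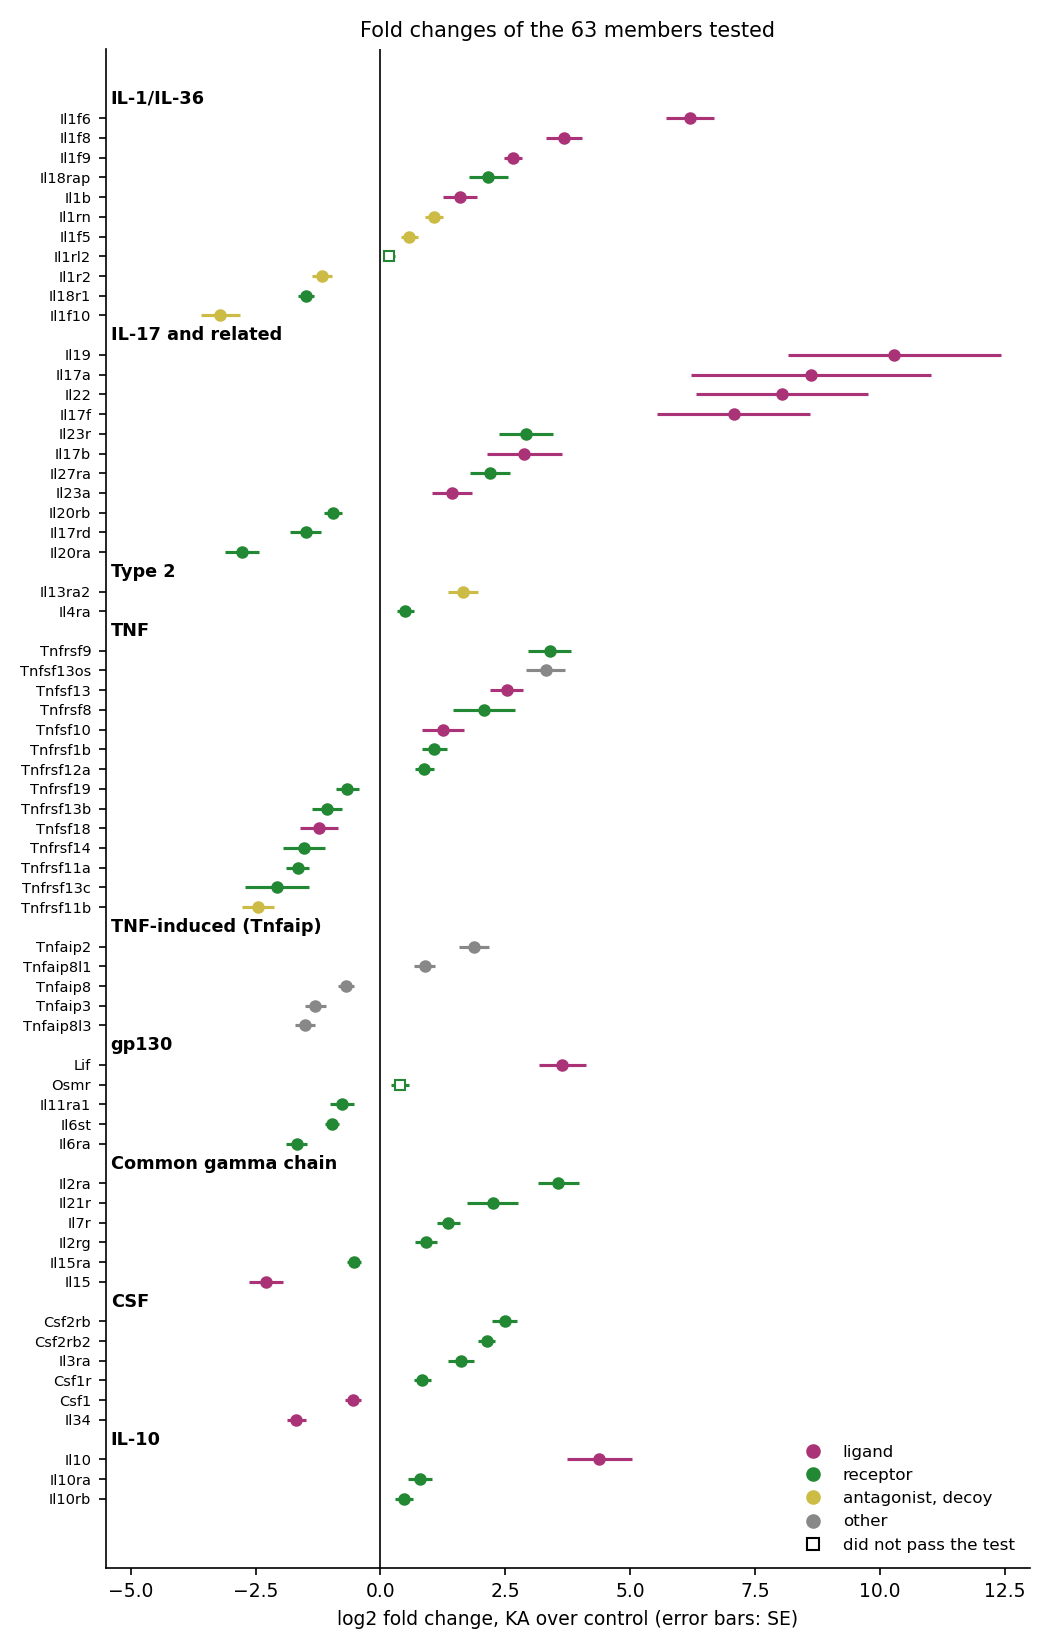
Log2 fold change (KA over control, x axis) with its standard error for the 63 members tested, by family and coloured by role. Filled points passed the test, and the 2 open squares are Il1rl2 and Osmr. Ligands of the IL-17 group stand farthest to the right, where the fitted values of Il17a, Il22 and Il19, which had no control reads, depend on the fitting procedure and are not bounds.

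The 4 interleukin 1 and 36 ligands listed all rose, and their antagonists moved both ways. Il1f9 encodes IL-36 gamma, an agonist of the IL-36 receptor (ENSMUSG00000044103, chromosome 2, 24186476 to 24193568). It had 194, 187 and 243 normalised reads in controls 1, 2 and 3, and 1913, 1253, 1387 and 1241 in KA 1, 2, 3 and 4. Its mean thus went from 208 ± 30.6 (SD, n = 3) to 1448 ± 317 (SD, n = 4) (log2 fold change 2.66, SE 0.18; edgeR adjusted p = 4.6e-06). Every KA library lay far above every control. Il1f6, which encodes the agonist IL-36 alpha, had 0.947, 4.12 and 8.02 normalised reads in controls and 587, 299.7, 348 and 274 in KA. Its log2 fold change was 6.20 (SE 0.48; edgeR adjusted p = 9.21e-06), 5.79 without control 1 and 7.07 without control 3. Il1f8, which encodes the agonist IL-36 beta, had 11.4, 29.9 and 14.4 in controls and 295, 184, 323 and 223 in KA (log2 fold change 3.67, SE 0.36; edgeR adjusted p = 3.17e-05). On the scale of normalised reads per kilobase of gene length, the order of the 3 levels in controls was Il1f9 (126 ± 18.6, SD, n = 3), Il1f8 (15.3 ± 8.16) and Il1f6 (4.94 ± 4.01), and Il1f8 and Il1f6 did not differ beyond their SDs. In KA the order was Il1f9 (879 ± 192, SD, n = 4), Il1f6 (427 ± 162) and Il1f8 (210.4 ± 52.5). In KA the 3 means lay apart by more than their SDs. Il1b, which encodes interleukin 1 beta, rose from 21.8, 23.7 and 24.1 to 104, 57.5, 49.1 and 97.6 (log2 fold change 1.59, SE 0.34; edgeR adjusted p = 0.0018).

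Of the 4 antagonists and decoys of this group 2 rose and 2 fell. Il1rn, which encodes the interleukin 1 receptor antagonist, had 1308, 1662 and 1205 normalised reads in controls and 4357, 2564, 2813 and 3148 in KA. It rose by 1.07 on the log2 scale (SE 0.18; edgeR adjusted p = 0.000574). Il1f5, which encodes the IL-36 receptor antagonist, had 1693, 1533 and 1664 in controls and 2939, 2207, 3429 and 2103 in KA (log2 fold change 0.58, SE 0.17; edgeR adjusted p = 0.00961). The groups of both genes did not overlap, yet both rose less than the 3 IL-36 agonists. Il1r2, the decoy receptor that binds interleukin 1 without signalling, fell from 1991, 2104 and 2656 to 822, 1101, 1476 and 963 (log2 fold change -1.17, SE 0.20; edgeR adjusted p = 0.000556). Il1f10, which encodes IL-38, a family member described as an antagonist, fell from 95.6, 92.8 and 150.0 to 4.95, 14.6, 13.6 and 19.7. This was the largest fall among the 63 members tested, with a log2 fold change of -3.21 (SE 0.39; edgeR adjusted p = 9.48e-05).

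Ratios of an agonist to its antagonist within each library do not depend on scaling between libraries. Of 13 pairs chosen from receptor biology, 5 have both genes listed. The log2 ratio of Il1f9 to Il1f5 was -3.12, -3.03 and -2.77 in controls and -0.62, -0.82, -1.31 and -0.76 in KA, a difference of 2.10 (exact two-sided permutation test over the 35 ways to split the libraries, p = 0.0286, adjusted over 5 pairs p = 0.0476). Il1f8 against Il1f5 differed by 3.15 and Il1f6 against Il1f5 by 5.87, each with the same exact permutation p = 0.0286, the smallest that 4 against 3 libraries can give. The IL-36 agonists thus stood higher relative to their antagonist in each of the 4 KA libraries than in any control. Il1b against Il1rn had log2 ratios of -5.88, -6.10 and -5.62 in controls and -5.38, -5.47, -5.83 and -5.00 in KA. The groups overlapped, and the difference of 0.44 did not pass (exact permutation p = 0.114, adjusted p = 0.143). Each gene of these pairs had been listed for its own difference, so the ratios are not independent of that choice.

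**Figure D2:**
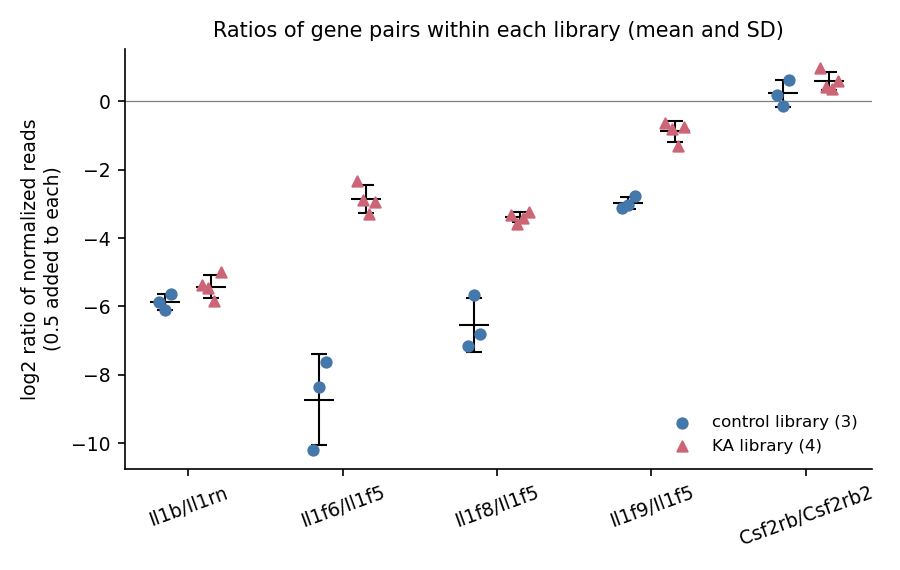
Log2 ratio of normalised reads (y axis, 0.5 added to each value) of 5 gene pairs in each library, with the mean and SD of each group in black. For the 3 IL-36 agonists over Il1f5 all KA triangles lie above all control circles, while Il1b over Il1rn and Csf2rb over Csf2rb2 overlap.

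Receptor chains of this group did not move together. Il1rl2, the chain that binds the IL-36 ligands, had 2081, 1864 and 1889 normalised reads in controls and 2447, 2181, 2229.9 and 2787 in KA. The groups did not overlap, but the log2 fold change of 0.18 did not pass (SE 0.12; edgeR adjusted p = 0.189), and with the authors' size factors it did, at 0.31 (edgeR adjusted p = 0.0292). With those factors 6758 of the 6761 listed genes tested passed, so that pass says little about Il1rl2. The 2 chains of the interleukin 18 receptor, whose genes are neighbours on chromosome 1, moved in opposite directions. Il18r1, the binding chain, fell from 256, 252 and 299 to 116, 104, 101 and 101 (log2 fold change -1.49, SE 0.17; edgeR adjusted p = 6.06e-05). Il18rap, the accessory chain, rose from 7.57, 14.4 and 20.9 to 88, 73.2, 44.9 and 78.9 (log2 fold change 2.16, SE 0.39; edgeR adjusted p = 0.000694). Per kilobase of gene length the binding chain stood at 55.8 ± 5.48 normalised reads (SD, n = 3) against 2.12 ± 0.983 for the accessory chain in controls, and at 21.9 ± 1.46 (SD, n = 4) against 10.6 ± 2.75 in KA. The genes around IL-1 processing, a list that holds inflammasome parts and proteases, had 10 of 16 members in the table, of which 6 rose and 4 fell. Among them Casp1, the protease that cleaves pro-interleukin 1 beta, rose by 1.00 on the log2 scale (SE 0.17; edgeR adjusted p = 0.000474) and Nlrp3, an inflammasome sensor, by 2.25 (SE 0.36; edgeR adjusted p = 0.000378), while Nlrp10 had a log2 fold change of -1.29 (SE 0.18; edgeR adjusted p = 0.000158).

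In the IL-17 group all 7 ligands listed were higher in KA, and 6 of them could be tested and passed. Il17a, Il22, Il19 and Il24 had no control read, so they could be listed only as higher. The same nearly held for Il17f, with 2 control reads, so the shared direction is no independent result. Interleukins 17A and 17F act through a shared receptor on keratinocytes. Il17a (ENSMUSG00000025929, chromosome 1, 20730905 to 20734496) had no read in any control and 163, 15.8, 6.27 and 19.7 normalised reads in KA 1, 2, 3 and 4 (edgeR adjusted p = 0.012). Against a floor of 3 counts over the control group it was at least 55.9-fold higher. KA 1 was far above the other KA libraries, and without it the bound was 15.2-fold. Without KA 1, 2 or 4 the gene had too few reads for the test. Il17f (ENSMUSG00000041872, chromosome 1, 20777146 to 20790617) had 0, 0 and 1.60 in controls, from 2 reads, and 320.5, 54.1, 16.7 and 42.6 in KA (edgeR adjusted p = 0.00278). Its count ratio was 184 (exact 95% interval 50.6 to 1523, counting error alone), and 61.2 without KA 1 (16.5 to 512). KA 1 again stood highest and KA 3 lowest, as for Il17a. Among the 4 animals numbered 4853 to 4857 (controls 1 and 2, KA 1 and KA 2), neither passed (edgeR adjusted p = 0.103 for Il17a and 0.0622 for Il17f).

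Interleukins 22, 19 and 24 signal to epithelial cells through receptors of the IL-20 and IL-22 type. Il22 had no control read and 67.3, 48.4, 4.18 and 16.6 normalised reads in KA, at least 37.2-fold higher (edgeR adjusted p = 0.00317). As for Il17a, there were too few Il22 reads for the test without KA 1, 2 or 4. Il19 had none in controls and 399, 109, 11.5 and 135 in KA, at least 178-fold higher (edgeR adjusted p = 0.00376), and at least 93.0-fold without KA 1. Il24 had none in controls and 23.7, 21.4, 4.18 and 5.19 in KA, at least 14.9-fold higher, with too few reads for the test. KA 3 had the lowest value of all 3 genes. These bounds and intervals take in counting error alone, and the intervals pool the reads of each group. The spread between animals is left out of them. Without molecular identifiers several reads may also come from 1 molecule. Il23a, which encodes the p19 chain of interleukin 23, a cytokine that sustains IL-17-producing lymphocytes, rose from 6.63, 16.5 and 16.0 to 46.5, 49.6, 32.4 and 27.0 (log2 fold change 1.43, SE 0.40; edgeR adjusted p = 0.00704), and did not pass among females alone (edgeR adjusted p = 0.06). Il17b, a more distant ligand of the family, had 0, 1.03 and 4.01 in controls and 20.8, 15.8, 6.27 and 18.7 in KA (log2 fold change 2.88, SE 0.75; edgeR adjusted p = 0.00491; 2.39 without control 1 and 4.55 without control 3). It had too few reads for the test without KA 1, 2 or 4. The median log2 fold change of the 6 tested ligands was 7.55 as fitted, and 5.51 with Il17a, Il22 and Il19 at their bounds. Genes without control reads could be listed only as higher, so neither median is evidence of direction.

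**Figure D3:**
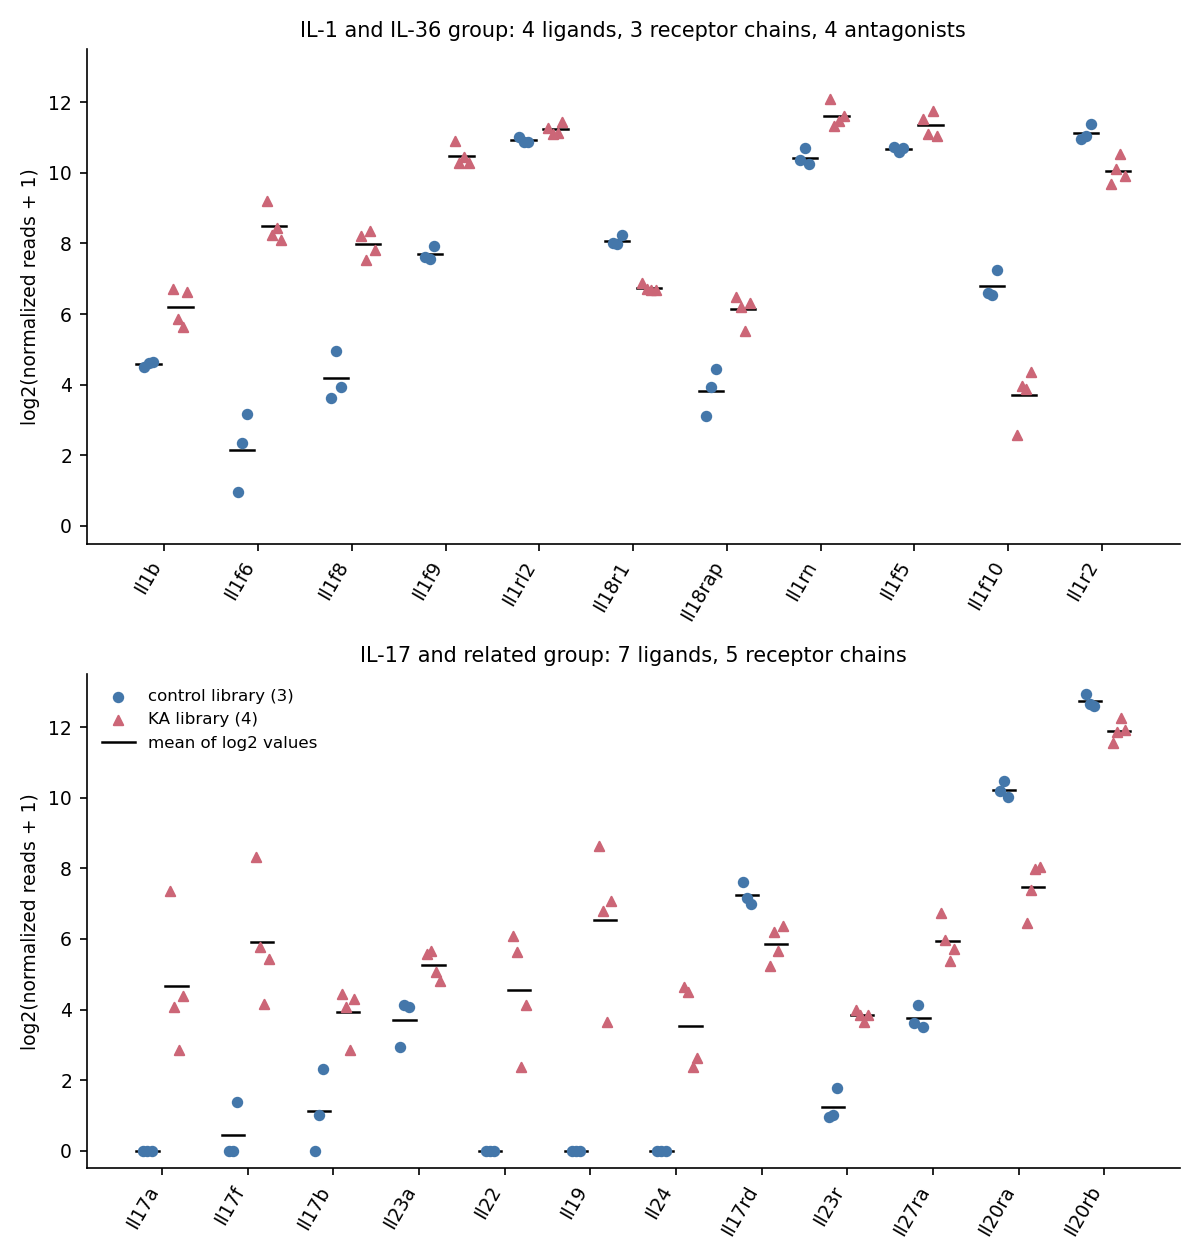
Normalised reads of the IL-1 and IL-36 group (top) and the IL-17 group (bottom) in each of 3 control and 4 KA libraries, on a log2 scale with 1 added. Ligands at the left of each panel are higher in every KA library, with the widest spread between KA libraries in Il17a, Il17f, Il22 and Il19, while Il20ra, Il20rb and Il17rd are lower.

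Of the 5 receptor chains counted in this group, 3 fell and 2 rose. Il20ra and Il20rb encode the 2 chains of the receptor that interleukins 19 and 24 use on keratinocytes. Il20ra fell from 1168, 1429.9 and 1040.1 normalised reads to 86.1, 166, 252 and 264 (log2 fold change -2.78, SE 0.34; edgeR adjusted p = 0.000118). Il20rb fell from 7842, 6482 and 6230.5 to 3013, 3716, 4923 and 3872 (log2 fold change -0.95, SE 0.18; edgeR adjusted p = 0.000957). No KA library of either gene reached a control. KA 1 had the least of both chains, but also the least Il1r2, Il15 and Il6ra, so this is not particular to these chains. Il17rd, a chain of the IL-17 receptor family also known as Sef, fell from 196, 143 and 125 to 36.6, 72.1, 49.1 and 82.0 (log2 fold change -1.50, SE 0.31; edgeR adjusted p = 0.00154). Chains found mainly on lymphocytes and myeloid cells rose from low levels. Il23r, the specific chain of the interleukin 23 receptor, went from 0.947, 1.03 and 2.41 to 14.8, 13.5, 11.5 and 13.5 (log2 fold change 2.91, SE 0.54; edgeR adjusted p = 0.00085; 2.73 without control 1 and 3.50 without control 3). Il10rb, which interleukin 22 shares with interleukin 10 and which is described with the latter, also rose. Il27ra, a chain of the interleukin 27 receptor, went from 11.4, 16.5 and 10.4 to 105, 62.0, 40.7 and 51.9 (log2 fold change 2.20, SE 0.40; edgeR adjusted p = 0.000744).

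Genes known to respond to interleukins 17 and 22 in keratinocytes were counted as a list, since these cytokines act through them. Of 17 genes 15 are listed, and of 14 tested 13 rose and S100a7a fell. Among them Ccl20, a chemokine for lymphocytes, had a mean of 18.4 ± 1.52 (SD, n = 3) in controls and 459 ± 189 (SD, n = 4) in KA, and Zc3h12a, an RNase that limits inflammation, went from 1065 ± 81.2 to 6736 ± 1783. Summed over the 15 genes, the libraries held 33342 to 40304 normalised reads in controls and 339953, 185366, 113011 and 216219 in KA 1, 2, 3 and 4. Most of these reads belong to the stress keratins Krt17 and Krt16, with KA means of 100988 ± 29414 and 49175 ± 32488 (SD, n = 4). KA 1 was highest and KA 3 lowest in this sum, as for Il17a, Il17f, Il19 and Il22, while KA 2 lay above KA 4 for Il17f and Il22 but not in the sum. The list was drawn up with earlier results of these data known and is no independent evidence of its direction.

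T-cell markers moved in both directions. Of 12 T-cell genes 7 are listed, 3 rose, 3 fell and Trac did not pass, and their sum was 1404 to 1793 normalised reads in controls and 1251 to 1379.9 in KA. Trdc, the constant part of the delta T-cell receptor chain that marks the resident gamma delta T cells of mouse epidermis, fell from 457, 379 and 494 to 160.2, 127, 126 and 139 (log2 fold change -1.82, SE 0.16; edgeR adjusted p = 1.96e-05). Trbc1, a constant part of the beta chain of other T cells, rose from 140.1, 184 and 148 to 387, 305, 422 and 233 (log2 fold change 0.96, SE 0.22; edgeR adjusted p = 0.00288). No KA library had a summed level above that of the lowest control. Markers of innate lymphoid and natural killer cells had 3 of 6 genes listed, all of which fell (15178 to 16974 in controls, 5139.9 to 8413 in KA). Gata3 and Rora, which make up most of that sum, are also expressed by keratinocytes. Neutrophil markers had 3 of 11 listed, and all rose. Cxcr2, a chemokine receptor of neutrophils, went from 0, 1.03 and 4.01 to 386, 219.7, 220.4 and 289. S100a8 and S100a9 made up nearly all of their sum of 10961 to 65082 in KA (12.3 to 20.9 in controls), and stressed keratinocytes express them as well. The part of any of these cells in the cytokine levels was not tested.

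Only 2 members belong to the type 2 group, which serves interleukins 4 and 13, and both rose. Il4ra, the chain shared by the receptors of interleukins 4 and 13, had 1215, 1049 and 1189 normalised reads in controls and 2068, 1689, 1289.9 and 2137 in KA. Its log2 fold change was 0.50 (SE 0.17; edgeR adjusted p = 0.0154). The call did not hold without control 2 (edgeR adjusted p = 0.0604) or among females alone (0.121). Il13ra2, a decoy that binds interleukin 13, rose from 48.3, 57.7 and 69.8 to 166, 223, 133 and 288 (log2 fold change 1.65, SE 0.30; edgeR adjusted p = 0.000712). The decoy rose in all 4 KA libraries beyond the highest control. Crlf2, the TSLP-binding receptor chain, which is named otherwise, had a mean of 213 ± 29.2 (SD, n = 3) in controls and 335 ± 6.45 (SD, n = 4) in KA (log2 fold change 0.52, SE 0.15; edgeR adjusted p = 0.00892). Of 14 genes known to respond to interleukins 4 and 13, 6 are listed, 4 of which rose and 2 fell. Ccl22, a chemokine of dendritic cells, rose from 43.0 ± 26.1 (SD, n = 3) to 642 ± 58.5 (SD, n = 4), while Arg1, an arginase that keratinocytes also make, fell from 824 ± 237 to 55.6 ± 26.7.

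TNF family genes split evenly: of 14 tested, 7 rose and 7 fell. This is near the shares of all listed genes tested, of which 44.0% rose and 47.5% fell. Among ligands, Tnfsf10 encodes TRAIL, which can trigger cell death. It had 34.1, 69.1 and 93.0 normalised reads in controls and 195, 121, 96.1 and 276 in KA (log2 fold change 1.26, SE 0.42; edgeR adjusted p = 0.0159). KA 3 lay barely above control 3, and the call did not hold without control 1 (edgeR adjusted p = 0.0517). Tnfsf13 encodes APRIL, a ligand for B-lineage cells, and rose from 6.63, 8.25 and 8.82 to 47.5, 49.6, 60.6 and 45.7 (log2 fold change 2.53, SE 0.33; edgeR adjusted p = 0.000132). The antisense transcript Tnfsf13os rose from 4.73, 3.09 and 4.81 to 39.6, 57.5, 53.3 and 39.5 (log2 fold change 3.31, SE 0.39; edgeR adjusted p = 8.19e-05). The readthrough gene Tnfsfm13 had 0.947, 1.03 and 4.01 in controls and 7.91, 21.4, 16.7 and 5.19 in KA, too few for the test. These 3 overlap on chromosome 11, so reads of one may belong to another. Tnfsf18 encodes the ligand of GITR, a co-stimulatory receptor of T cells, and fell from 67.2, 61.9 and 60.1 to 12.9, 28.2, 27.2 and 48.8 (log2 fold change -1.23, SE 0.39; edgeR adjusted p = 0.0124), though not among females alone (edgeR adjusted p = 0.105).

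Of the TNF receptors, 4 rose. Tnfrsf9 encodes CD137, a co-stimulatory receptor of activated lymphocytes, and rose from 11.4, 5.15 and 28.1 normalised reads to 228, 184, 141 and 158 (log2 fold change 3.39, SE 0.43; edgeR adjusted p = 0.000116; 3.01 without control 2 and 4.28 without control 3). Tnfrsf8 encodes CD30, also found on activated lymphocytes, and rose from 1.89, 5.15 and 5.61 to 37.6, 12.4, 8.36 and 21.8 (log2 fold change 2.07, SE 0.62; edgeR adjusted p = 0.00965). Its reads were too few for the test without KA 1, 2 or 4. Tnfrsf1b, the second TNF receptor, lies beside Tnfrsf8 on chromosome 4. It rose from 82.4, 118 and 172 to 362, 278, 224 and 292 (log2 fold change 1.08, SE 0.25; edgeR adjusted p = 0.0028). Tnfrsf12a encodes the receptor of TWEAK and was the most abundant of the 4 in both groups, also per kilobase of gene length. It rose from 592, 669 and 706 to 1571, 1645, 897 and 1208 (log2 fold change 0.88, SE 0.19; edgeR adjusted p = 0.0018).

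The receptor RANK and its soluble counterpart fell together. Tnfrsf11a, which encodes RANK, fell from 389, 274 and 296 normalised reads to 96.0, 82.2, 145 and 118 (log2 fold change -1.66, SE 0.24; edgeR adjusted p = 0.000216). Tnfrsf11b encodes osteoprotegerin, the decoy that captures the ligand of RANK, and fell from 238, 198 and 318 to 25.7, 47.3, 74.2 and 51.9 (log2 fold change -2.46, SE 0.32; edgeR adjusted p = 0.000139). All KA libraries of both genes lay below all controls. Tnfrsf13b and Tnfrsf13c encode TACI and the BAFF receptor, known from B cells. Tnfrsf13b fell from 55.9, 66.0 and 93.8 to 52.4, 30.4, 39.7 and 29.1 (log2 fold change -1.06, SE 0.30; edgeR adjusted p = 0.00718), a call that was lost without control 3 (edgeR adjusted p = 0.0505) and among animals 4853 to 4857 (0.116). Tnfrsf13c fell from 15.1, 13.4 and 12.0 to 0, 2.25, 6.27 and 5.19 (log2 fold change -2.07, SE 0.65; edgeR adjusted p = 0.0118), but not among females alone (0.0764).

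Groups overlapped in the other 2 TNF receptors. Tnfrsf14, which encodes HVEM, fell from 36.0, 103 and 85.8 normalised reads to 15.8, 24.8, 30.3 and 41.5 (log2 fold change -1.53, SE 0.42; edgeR adjusted p = 0.00623), and the call was lost among females alone (0.131). Tnfrsf19, which encodes TROY, known from hair follicle cells, fell from 3327, 4245 and 4644 to 1818, 2668, 3057 and 3705 (log2 fold change -0.66, SE 0.23; edgeR adjusted p = 0.0187). That call was lost without control 2 (edgeR adjusted p = 0.0513), without control 3 (0.0723) and among females alone (0.166). Of 21 family members that are named otherwise 14 are listed, and 8 rose, 5 fell and Ltbr did not pass. Among those that rose, Ltb, which encodes lymphotoxin beta, had a log2 fold change of 1.84 (SE 0.35; edgeR adjusted p = 0.00112). Cd40, a co-stimulatory receptor of antigen-presenting cells, rose by 2.07 (SE 0.48; edgeR adjusted p = 0.00288), Relt by 1.38 (SE 0.46; edgeR adjusted p = 0.0152) and Cd27, a co-stimulatory receptor of lymphocytes, by 1.16 (SE 0.37; edgeR adjusted p = 0.0124). Of those that fell, Ngfr, the low-affinity neurotrophin receptor, had a log2 fold change of -1.99 (SE 0.26; edgeR adjusted p = 0.000139). Edar and Eda, receptor and ligand of ectodysplasin signalling in skin appendages, had log2 fold changes of -2.03 (SE 0.35; edgeR adjusted p = 0.000613) and -0.92 (SE 0.19; edgeR adjusted p = 0.00148). Fas, a death receptor, fell by 0.89 on the log2 scale (SE 0.16; edgeR adjusted p = 0.000736).

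**Figure D4:**
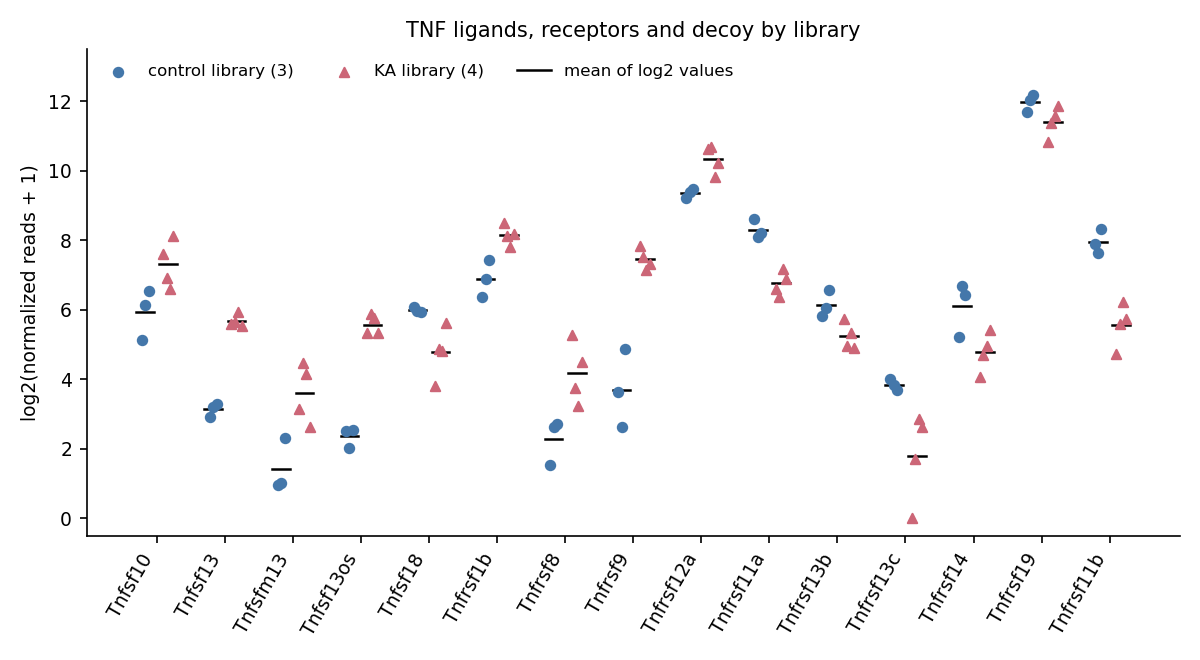
Normalised reads of 4 TNF ligands, the antisense transcript Tnfsf13os, 9 receptors and the decoy Tnfrsf11b in each library, on a log2 scale with 1 added. Tnfrsf9 and Tnfsf13 are higher in every KA library and Tnfrsf11a and Tnfrsf11b lower in every KA library, while the groups of Tnfrsf14 and Tnfrsf19 overlap.

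The 5 Tnfaip genes moved both ways, 2 up and 3 down. Tnfaip2 rose from 349, 352 and 346 normalised reads to 2364, 1171, 812 and 1312 (log2 fold change 1.87, SE 0.30; edgeR adjusted p = 0.000427). Tnfaip3, which encodes A20, an enzyme that limits NF-kB signalling, fell from 2189, 2639 and 3269 to 872, 1047, 1233 and 1608 (log2 fold change -1.30, SE 0.21; edgeR adjusted p = 0.000486). Tnfaip8l3, a lipid-binding protein of the TIPE family, fell from 498, 438 and 329 to 156, 146, 193 and 154 (log2 fold change -1.51, SE 0.20; edgeR adjusted p = 0.000127). Tnfaip8l1 rose by 0.89 and Tnfaip8 fell by 0.68 on the log2 scale, and neither passed among females alone (edgeR adjusted p = 0.069 and 0.053). Nfkbia, which encodes another inhibitor of this pathway, I-kappa-B alpha, went from 12051 ± 1504 in controls (SD, n = 3) to 7651 ± 441 in KA (SD, n = 4) (log2 fold change -0.79, SE 0.12; edgeR adjusted p = 0.000302). Of 42 genes of TLR, IL-1 and NF-kB signalling 23 are listed, and 12 rose, 8 fell and 3 did not pass. Nfkbiz, a nuclear cofactor of NF-kB in IL-17 and IL-36 responses, rose by 1.5 (SE 0.18; edgeR adjusted p = 9.01e-05) and Irak3, an inhibitory kinase of the IL-1 receptor pathway, by 1.53 (SE 0.19; edgeR adjusted p = 9.01e-05).

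The gp130 cytokines signal through a shared chain, Il6st, and of the members tested the ligand Lif rose, 3 receptor chains fell and Osmr did not pass. Lif, leukaemia inhibitory factor, had 20.8, 15.5 and 34.5 normalised reads in controls and 637, 265, 202 and 228 in KA (log2 fold change 3.64, SE 0.47; edgeR adjusted p = 0.000146). KA 1 stood above the other KA libraries, all of which were still far above the controls. Il6ra, the interleukin 6 binding chain, fell from 5426, 5376 and 6536 to 1424, 1560.4, 2463 and 2389 (log2 fold change -1.68, SE 0.21; edgeR adjusted p = 0.000124). Il6st fell from 2967, 2457 and 2535 to 1433, 1339.6, 1387 and 1795 (log2 fold change -0.97, SE 0.14; edgeR adjusted p = 0.000228). Neither gene had a KA library within the range of the controls. Il11ra1 had a log2 fold change of -0.76 (edgeR adjusted p = 0.0122, 0.0662 without control 3 and 0.0846 among females alone), and its groups overlapped. Its annotated span overlaps other coding genes and it has a close paralog, so its reads are uncertain. Osmr, the oncostatin M receptor chain, had 690.2, 548 and 594 in controls and 1013, 820.2, 648 and 1070.4 in KA, and did not pass (log2 fold change 0.40, SE 0.18; edgeR adjusted p = 0.0517). It passed with the authors' size factors, as all 63 members tested did. So did 6758 of the 6761 listed genes tested, so a pass under that scaling says little. Osmr also passed without control 1 (edgeR adjusted p = 0.0309) and without KA 3 (0.0107), but not without any other library. The authors' own adjusted p was 0.0151. Genes of the same family that are named otherwise were also listed. Cntfr, a receptor chain for ciliary neurotrophic factor, went from 21.3 ± 9.71 in controls (SD, n = 3) to 275 ± 171 in KA (SD, n = 4; log2 fold change 3.52, SE 0.54; edgeR adjusted p = 0.000342). The ligand Clcf1 rose by 0.39 on the log2 scale (SE 0.16; edgeR adjusted p = 0.0426). Of 22 genes of JAK and STAT signalling, the route from these receptors to the nucleus, 11 are listed, of which 2 rose and 9 fell. Stat3, the main transcription factor of gp130 and interleukin 22 signals, rose by 0.90 on the log2 scale (SE 0.17; edgeR adjusted p = 0.000823), while its feedback inhibitor Socs3 fell by 0.51 (SE 0.12; edgeR adjusted p = 0.00248).

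Among genes of the common gamma chain, receptor chains known from lymphocytes rose and Il15 fell. Il15, which supports gamma delta T cells and natural killer cells, fell from 217, 221 and 269 normalised reads to 25.7, 47.3, 85.6 and 48.8 (log2 fold change -2.30, SE 0.34; edgeR adjusted p = 0.000234). Its binding chain Il15ra also fell, by 0.53 on the log2 scale (edgeR adjusted p = 0.00465; 0.12 among females alone). Il2ra, the high-affinity chain of the interleukin 2 receptor found on activated and regulatory T cells, rose from 12.3, 5.15 and 12.8 to 201, 107, 84.6 and 145 (log2 fold change 3.56, SE 0.41; edgeR adjusted p = 7.2e-05). Il21r rose from 2.84, 8.25 and 17.6 to 80.1, 45.1, 38.6 and 43.6 (log2 fold change 2.25, SE 0.51; edgeR adjusted p = 0.00234; 1.87 without control 1 and 3.11 without control 3). Both had low levels in controls and no overlap between groups. Il7r and the shared chain Il2rg rose by 1.36 and 0.91 on the log2 scale.

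Of the colony-stimulating factor genes tested, the ligands Il34 and Csf1 fell and 4 receptor chains rose. Il34, which keratinocytes make to maintain Langerhans cells, fell from 4098, 3299 and 4906 normalised reads to 1135, 1224, 1758 and 1450.4 (log2 fold change -1.69, SE 0.19; edgeR adjusted p = 5.76e-05). Csf1, the other ligand of the same receptor, fell by 0.55 on the log2 scale (edgeR adjusted p = 0.00782, and 0.0545 without control 1). Their receptor Csf1r rose by 0.84 on the log2 scale, from 650.2 ± 151 (SD, n = 3) to 1277 ± 157 (SD, n = 4; edgeR adjusted p = 0.00136). All 9 Langerhans and dendritic cell markers are listed and all 9 rose, their sum being 28525 to 39822 in controls and 54046 to 80307 in KA. Cd207, the langerin gene that defines Langerhans cells, went from 699 ± 114 (SD, n = 3) to 1369 ± 166 (SD, n = 4). Of 9 macrophage and monocyte genes 6 are listed, including Csf1r itself, and 4 rose and 2 fell. The part of these cells in the receptor levels was not tested. Csf2rb, the chain shared by the receptors of GM-CSF, interleukin 3 and interleukin 5, rose from 95.6, 70.1 and 119 to 835, 536, 427 and 561 (log2 fold change 2.49, SE 0.25; edgeR adjusted p = 3.55e-05). Its neighbour Csf2rb2, a close paralog, rose from 83.3, 77.3 and 76.2 to 425, 399, 331 and 369.6 (log2 fold change 2.13, SE 0.17; edgeR adjusted p = 1.03e-05). Reads of the 2 may have been divided between them, and their ratio did not pass (exact permutation p = 0.286). Il3ra rose by 1.62 on the log2 scale. Csf3, the granulocyte factor, had 0, 0 and 1.60 in controls and 17.8, 12.4, 2.09 and 3.11 in KA, too few for the test. Its count ratio was 14.6 (exact 95% interval 3.74 to 125, counting error alone) and 9.32 without KA 1 (2.19 to 83.6).

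Interleukin 10, a cytokine that restrains inflammation, was the last of the ligands that rose. Il10 had 0.947, 0 and 0.802 normalised reads in controls, from 2 reads, and 18.8, 18.0, 16.7 and 12.5 in KA (edgeR adjusted p = 0.000252). The count ratio was 27.0 (exact 95% interval 7.17 to 228, counting error alone). Its spread between KA libraries was small beside that of its neighbour Il19. The receptor chains Il10ra and Il10rb rose by 0.79 and 0.47 on the log2 scale. Il10ra had 72.0, 45.4 and 65.0 in controls and 108, 110.4, 136 and 108 in KA (edgeR adjusted p = 0.0109), but 0.0534 without control 2, 0.075 among females and 0.0564 among animals 4853 to 4857. Il10rb had 132, 159.8 and 156 in controls and 265, 192, 217 and 230.5 in KA (edgeR adjusted p = 0.0291), a call lost in 7 of 17 alternatives (edgeR adjusted p up to 0.112).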

How the data were processed

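RNA sequencing read counts per gene from 7 epidermis libraries, 3 control and 4 KA, each from a separate mouse, were deposited by the authors in 1 table of 7091 genes. The same table holds the authors' normalized reads, a coverage signal that equals each count divided by the library's size factor (0.8876 to 1.247), and the authors' log2 fold changes, test score and p-values. Tools named in the submitters' processing notes, with no role stated, are fastp, STAR 2.6.1d, featureCounts 1.5.0-p3, DESeq2 1.40.2 and the build mm10. Levels in the text are the authors' deposited normalized reads. The table lists genes by the authors' adjusted p-value, so both the fits and TMM scaling rest on a selected set.

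Counts as deposited were tested with edgeR 4.0.16 in R 4.3.3: the default low-count filter left out 330 genes and kept 6761, libraries were scaled by TMM, and a quasi-likelihood test of KA against control was adjusted by the Benjamini-Hochberg method at 0.05. Standard errors are the fold change divided by the root of the F statistic. The code was tested on simulated counts. No libraries were duplicates. Sample numbers are shared by the groups, and the main test did not pair libraries by them. The deviations of same-numbered libraries correlated at -0.202, 0.148 and -0.091, and those of other pairs at -0.211 to 0.204. So few pairs cannot show whether libraries were paired. All 66 members were found in GENCODE M21, and 64 had the table's position there.

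The members and all lists were chosen with earlier results of these data known. Values in every library are given for the IL-1 and IL-36, IL-17, type 2 and TNF groups, and in other groups for the 3 called members with the largest fold change, while other members are given more briefly. Osmr, Csf3, Csf2rb2, Il10 and its receptors, and genes of the pathway and marker lists that are named, were chosen after their values were seen where this rule does not name them. Alternatives were other scaling (RLE, the authors' size factors), other filters, DESeq2 1.42.0, covariates for sex and animal number run, blocks, and each library left out. Females alone and the lower animal numbers alone (4853 to 4857) were added after the data were seen. Genes not in the table were not analysed here.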

Additional observations from a re-analysis of the deposited data

Results flagged for a closer look

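In 5 of 55 members checked, 1 of the 4 KA libraries stood apart from the others by a gap that, divided by the range of the 4, was above Dixon's 95% limit. Chance alone would give about 2.75. For Il17a the gap was 0.914 of the range, KA 1 having 163 normalised reads and the other KA libraries a mean of 13.9. Il17f had a gap of 0.877, again through KA 1, with 320.5 against a mean of 37.8. Lif had a gap of 0.855, with 637 in KA 1 against a mean of 232. Il21r had a gap of 0.845, with 80.1 in KA 1 against a mean of 42.4. For Il10ra the gap was 0.907, through KA 3, with 136 against a mean of 109.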

How the results depend on the processing

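Of the 61 members called, 43 passed under each of the 17 alternatives that gave them a value, 18 lost the call in at least 1, and none changed direction. The same count was not made for all listed genes, so these numbers do not set the members apart. Il22 and Il17b, which kept their calls, had a value in only 13 and 12 of the 17. With 1 library left out, 56 to 62 members passed (90.9% to 98.4% of those tested). Of all listed genes 5792 to 6132 passed (84.6% to 91.2% of those tested). Among females alone 45 of 59 members passed (76.3%), beside 61.9% of all listed genes tested there. Among animals 4853 to 4857 alone 58 of 65 passed (89.2%), beside 86.9%. Many listed genes of any family thus lost their call among females alone. Requiring a log2 fold change of at least 1 as well left 2806 listed genes in place of 6188, by construction. With the replicate block by sample number, 57 of 63 members and 5749 listed genes passed. Under that pairing the adjusted p-values by edgeR were 0.0515 for Il4ra, 0.0717 for Tnfsf10, 0.0516 for Tnfrsf8 and 0.112 for Il10rb. The authors' size factors raised the share of higher calls among listed genes from 48.1% to 52.5%. Differences in log2 ratio with 1 library left out ranged from 0.31 to 0.58 for Il1b to Il1rn, 5.13 to 6.42 for Il1f6, 2.84 to 3.59 for Il1f8 and 2.02 to 2.24 for Il1f9 to Il1f5, and 0.17 to 0.56 for Csf2rb to Csf2rb2. Low counts limit Il17a, Il17f, Il22, Il24, Csf3 and Il10, most of all in controls.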
